A study of Mus musculus with 8 samples.

Results

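The macrophage lineage transcription factors described here are Spi1, Cebpa, Cebpb, Cebpd, Maf, Klf2, Klf4, Klf6 and Mef2c, 9 genes chosen by name from the 50615 genes of the count table. No cut on their levels was used, but earlier results of these data were known when they were chosen. The samples were bone marrow-derived macrophages (BMDMs) of C57BL/6 mice, that is, macrophages raised in culture from marrow cells, and their poly(A) RNA was sequenced. Ncoa6 fl/fl LysM CRE mice (Ncoa6-KO) were compared with Ncoa6 fl/fl mice (Ncoa6-sufficient, called WT in the sample labels). Both genotypes carry floxed Ncoa6 alleles, and Cre is expressed from the lysozyme gene Lyz2, which is active in myeloid cells, so the knockout groups also carry an engineered Lyz2 locus. The growth factor M-CSF, at 20 ng/ml over 6 days, was used to obtain the macrophages in all groups. The BMDMs were then kept in medium alone, or primed with lipopolysaccharide (LPS) at 100 ng/ml for 4 h and given monosodium urate (MSU) crystals at 200 µg/ml for 2 h (LPS + MSU). The 4 groups had 2 libraries apiece, and the methods name 2 different mice per group. Whether medium and LPS + MSU libraries of a genotype share mice is not given in the sources used here. The ages of the mice were not given in the sources used here.

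Macrophage identity is set by a small group of DNA-binding proteins. PU.1, the ETS-family protein encoded by Spi1, opens and holds the enhancers of myeloid genes and works with C/EBP proteins, which are leucine zipper factors: C/EBPα (Cebpa) acts in granulocyte and monocyte progenitors, and C/EBPβ (Cebpb) and C/EBPδ (Cebpd) are known as factors of the inflammatory response. c-MAF (Maf) is a large leucine zipper factor of mature macrophages with a known role at the interleukin gene Il10. Krüppel-like factors are zinc finger proteins, of which KLF2 (Klf2) is known to restrain activation of myeloid cells, KLF4 (Klf4) to take part in monocyte differentiation and KLF6 (Klf6) to promote inflammatory gene expression. MEF2C (Mef2c) is a MADS-box factor of myeloid progenitors, B cells and muscle that is regulated by MAP kinases.

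The libraries held between 25281955 and 33673552 expected counts. Ncoa6, the targeted gene, was measured at 1515 and 1405 normalized counts in Ncoa6-sufficient and 784 and 622 in Ncoa6-KO BMDMs kept in medium, and at 1297 and 1173 against 563 and 526 with LPS + MSU. It was lower by 1.05 ± 0.12 and 1.18 ± 0.12 on the log2 scale (± SE, n = 2 libraries per group, edgeR adjusted p = 0.00236 and 0.00189), with no overlap between genotypes. Normalized counts here are counts scaled by TMM to a mean library size of 29332189. All 7 macrophage markers passed the filter, and in each library Cd68 was at 44600 normalized counts or more and the F4/80 gene Adgre1 at 21090 or more. Their summed level did not overlap between genotypes: it was 381600 to 447500 in Ncoa6-sufficient and 245000 to 282800 in Ncoa6-KO libraries with medium alone, and 462000 to 530400 against 324100 to 346200 with LPS + MSU. In the knockout 2 of the 7 were called lower with medium alone (Fcgr1 and Lyz2) and 3 with LPS + MSU (these and Itgam), and 0 were called higher. Lyz2, the locus that carries Cre, was the largest part of this sum in each library. It was at 209900 to 272100 against 112000 to 129400 over both conditions. Cd68 overlapped between genotypes in both conditions, and Mertk with medium alone. The remaining markers, and Mertk with LPS + MSU, lay lower in the knockout without overlap. Markers of T and NK cells, of mast cells, basophils and eosinophils and of erythroid cells summed to at most 4.87 normalized counts in a library, with Cd3g, Ncr1 and Fcer1a at 0 throughout. The summed level of 8 neutrophil markers was 439 to 510 normalized counts with medium alone and 752 to 991 with LPS + MSU, with Ly6g at no more than 1.39. That of 6 dendritic cell markers was 11.2 to 22.5 and 141 to 209, of which Xcr1 made up 98.0 to 169 after stimulation. That of 5 stromal markers was 131 to 446 and 203 to 833, and that of 4 endothelial markers 362 to 700 and 3016 to 6794, nearly all of it Kdr, with Emcn at 0. That of 5 B cell markers was 27.2 to 50.3 with medium alone, 28.9 to 31.9 in stimulated Ncoa6-sufficient and 8.40 to 13.1 in stimulated Ncoa6-KO libraries. The part of other cells in the results below was not tested. In bulk RNA of this kind, fewer cells of a type and less RNA per cell cannot be told apart.

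All 9 factors passed the filter on low counts. Spi1 (ENSMUSG00000002111) lies at chr2:91082390-91115756, Cebpa at chr7:35119293-35121928, Cebpb at chr2:167688915-167690418, Cebpd at chr16:15887286-15891031, Maf at chr8:115682942-115707794, Klf2 at chr8:72319033-72321656, Klf4 at chr4:55527143-55532466, Klf6 at chr13:5861482-5870394 and Mef2c at chr13:83504034-83667080 (GRCm38). Maf and Klf4 are on the minus strand, the others on the plus strand. Cebpa, Cebpb and Cebpd are each annotated as 1 exon block. Exons of 4 of the factors overlap a gene on the opposite strand: Cebpa shares 51 bp with Gm45091, which had 0 to 13 counts in a library, Maf shares 440 bp with Gm15655 (39.7 to 169 counts), Cebpd shares 562 bp with Spidr (349 to 790 counts) and Cebpb shares 312 bp with Tmem189 (2451 to 8856 counts). The libraries were stranded, and the strand setting of the counting is not given in the sources used here, so the reads of these overlaps are uncertain.

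RefSeq promoter windows were at hand for 6 of the 9 factors (8 windows, 3 of them of Mef2c), Cebpa, Cebpb, Klf2, Klf4, Klf6 and Mef2c. The windows below are shown because these genes moved in different directions under LPS + MSU, as described next: Cebpa and Mef2c fell, Cebpb and Klf6 rose, and Klf2 gave different calls in the 2 genotypes. They run 5′ to 3′ on the gene's strand, which is plus for all of them, on GRCm38, and end before the first annotated exon base. Capitals mark matches, on either strand, to TATAAA, to CCAAT, to the kappa B motif GGGANNNNCC or to the MEF2 motif CTANNNNTAG.
Cebpa, chr7:35119043-35119292: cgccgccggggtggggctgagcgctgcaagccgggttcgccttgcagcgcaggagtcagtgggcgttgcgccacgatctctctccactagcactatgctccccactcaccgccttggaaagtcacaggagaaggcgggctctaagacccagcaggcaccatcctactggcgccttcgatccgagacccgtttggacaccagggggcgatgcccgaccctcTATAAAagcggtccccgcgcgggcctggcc
Mef2c, chr13:83503784-83504033: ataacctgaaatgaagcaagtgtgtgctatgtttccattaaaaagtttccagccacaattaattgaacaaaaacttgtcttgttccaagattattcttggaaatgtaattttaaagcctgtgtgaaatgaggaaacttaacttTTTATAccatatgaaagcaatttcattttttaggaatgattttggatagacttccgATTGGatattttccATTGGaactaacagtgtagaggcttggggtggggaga
Cebpb, chr2:167688665-167688914: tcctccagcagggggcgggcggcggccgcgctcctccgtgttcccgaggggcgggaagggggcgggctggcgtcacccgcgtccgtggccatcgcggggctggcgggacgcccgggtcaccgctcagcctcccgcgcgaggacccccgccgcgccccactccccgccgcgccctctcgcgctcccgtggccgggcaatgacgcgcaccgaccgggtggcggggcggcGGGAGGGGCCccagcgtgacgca
Klf6, chr13:5861239-5861481: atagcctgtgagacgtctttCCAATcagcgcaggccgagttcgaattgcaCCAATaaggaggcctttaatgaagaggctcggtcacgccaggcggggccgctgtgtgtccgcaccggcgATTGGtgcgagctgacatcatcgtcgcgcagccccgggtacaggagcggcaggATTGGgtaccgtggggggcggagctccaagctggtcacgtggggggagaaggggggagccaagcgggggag
Klf2, chr8:72318812-72319032: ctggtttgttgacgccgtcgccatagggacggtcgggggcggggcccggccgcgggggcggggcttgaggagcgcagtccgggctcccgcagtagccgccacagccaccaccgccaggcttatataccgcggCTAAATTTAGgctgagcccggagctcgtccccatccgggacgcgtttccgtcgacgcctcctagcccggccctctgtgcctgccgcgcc

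Over the full windows of 250 bases before to 50 after each start, TATAAA was found in Cebpa at -30 to -25 from the start and in 4 of the 8 windows, against 13.6% of all 32851 promoter windows. CCAAT was found in Klf6, 4 times, and in 2 windows of Mef2c (3 of 8, against 37.4%). The kappa B letters were found in Cebpb at -23 to -14, in Klf4 and in a downstream window of Mef2c (3 of 8, against 20.7%). The MEF2 letters were found in Klf2 at -118 to -109 (1 of 8, against 3.69%). The KLF motif CCNCNCCC, which overlaps the kappa B match of Cebpb, was found in 6 of the 8, 1 for each factor, against 49.5%. The CRE letters TGACGTCA, the C/EBP letters TTGCNNAA and the PU.1 letters GAGGAAGT were in 0 of these 8 windows, against 1.79%, 10.8% and 3.20% of all windows, respectively. The Klf2 window holds 71.5% and the Cebpb window 81.6% G and C, while that of Mef2c holds 33.6%.

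The factors spanned a wide range of levels in unstimulated cells. Per kilobase of exon, the order in Ncoa6-sufficient BMDMs with medium alone was Spi1 (2320 normalized counts per kilobase), Klf6 (1456), Maf (935), Cebpa (577), Cebpb (496), Klf2 (162), Mef2c (111), Klf4 (57.6) and Cebpd (54.7), and only the libraries of Klf4 and Cebpd overlapped between neighbours. With LPS + MSU the order was Klf6 (8595), Spi1 (6113), Maf (1807), Cebpb (1412), Cebpd (768), Klf2 (156), Klf4 (142), Mef2c (42.6) and Cebpa (8.64), in which Klf2 and Klf4 overlapped. Cebpa thus stood above Cebpb before stimulation and last of the 9 after it. In unstimulated Ncoa6-KO BMDMs the order was the same, except that Klf2 (124) and Mef2c (116) overlapped. With LPS + MSU, Cebpb (1822) stood above Maf (889) in the knockout, the reverse of the Ncoa6-sufficient order. The length of Mef2c, 15715 bp, joins the exons of all its annotated isoforms, and its level per kilobase is therefore a low estimate.

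**Figure D1:**
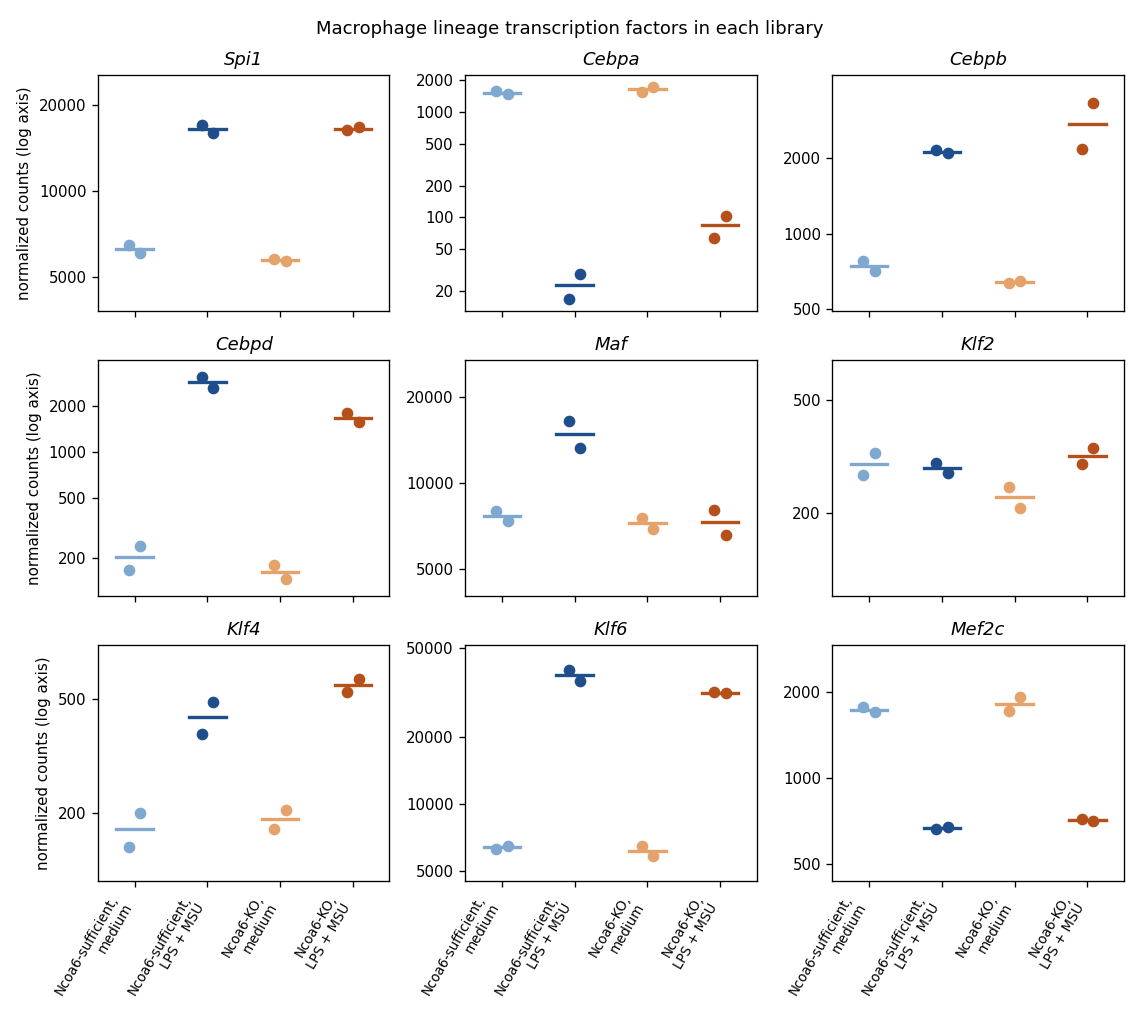
Normalized counts of the 9 factors in each library on log axes, 1 panel per gene, with the 4 groups on the x axis, points for single libraries and lines for group means (n = 2). Unstimulated Cebpa libraries lie between 1472 and 1728 and stimulated ones between 16.6 and 104, and the Maf libraries of stimulated Ncoa6-sufficient BMDMs lie above all others.

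The response to LPS + MSU was examined within each genotype. In Ncoa6-sufficient BMDMs 8 of the 9 factors were called (edgeR, adjusted p under 0.05 over all genes), 6 higher and 2 lower, where 55.2% of all 17625 genes tested were called, 24.7% higher and 30.5% lower. The same 8 were free of overlap between stimulated and unstimulated libraries, as were 78.5% of all genes tested. In Ncoa6-KO BMDMs 8 of 9 were called, again 6 higher and 2 lower, where 53.1% of all genes were called, 25.2% higher and 27.9% lower, and 8 of the 9 were free of overlap, where 76.5% of all genes were. The median log2 fold change of the 9 was 1.31 and 1.53 in the 2 genotypes, against -0.12 and -0.07 over all genes tested. Scaling by library totals without TMM factors moved the all-gene medians to -0.78 and -0.71, and the calls among the 9 to 5 higher and 3 lower in each genotype. Relative to these medians, the median of the 9 was 1.42 and 1.60 higher.

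Spi1 was the most abundant of the factors per kilobase with medium alone. Its libraries held 6462 and 6044 normalized counts before and 16981 and 15968 after stimulation in Ncoa6-sufficient BMDMs, and 5757 and 5675 against 16358 and 16719 in Ncoa6-KO BMDMs. Stimulated and unstimulated libraries did not overlap in either genotype. Spi1 rose by 1.40 ± 0.10 (log2 ± SE) and 1.53 ± 0.10 (edgeR adjusted p = 3.37e-07 and 1.75e-07).

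The C/EBP factors moved apart. Cebpa was at 1572 and 1472 normalized counts before and at 16.6 and 28.9 after stimulation in Ncoa6-sufficient BMDMs, the latter resting on 12 and 21 reads. In Ncoa6-KO BMDMs it was at 1540 and 1728 against 64.0 and 104, resting on 49 and 74 reads after stimulation. Cebpa fell by 6.05 ± 0.23 on the log2 scale, a 66.4-fold decrease, in Ncoa6-sufficient BMDMs. It fell by 4.29 ± 0.19, a 19.6-fold decrease, in Ncoa6-KO BMDMs, and these were the largest changes among the 9 factors (edgeR adjusted p = 3.01e-09 and 8.45e-09). Cebpd, at 168 and 242 normalized counts with medium alone in Ncoa6-sufficient BMDMs, reached 3103 and 2647 with LPS + MSU, and in Ncoa6-KO BMDMs it went from 181 and 146 to 1787 and 1559. It rose 14.1-fold and 10.2-fold (3.82 ± 0.17 and 3.35 ± 0.17 on the log2 scale, edgeR adjusted p = 1.18e-08 and 3.18e-08). Cebpb was at 782 and 709 against 2154 and 2092 normalized counts in Ncoa6-sufficient BMDMs, and at 638 and 646 against 2176 and 3306 in Ncoa6-KO BMDMs. It rose by 1.51 ± 0.16 and 2.09 ± 0.16 (edgeR adjusted p = 1.02e-05 and 8.27e-07), and the 2 stimulated knockout libraries stood farther apart than those of any other group.

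Per kilobase of exon, Cebpa made up 51.0% to 51.4% of the summed level of Cebpa, Cebpb and Cebpd in unstimulated Ncoa6-sufficient BMDMs, and 55.3% to 58.3% in Ncoa6-KO BMDMs. With LPS + MSU its share was 0.278% to 0.520% and 1.25% to 1.48%. The share of Cebpd went from 3.87% to 5.90% with medium alone to 33.5% to 36.5% with LPS + MSU in Ncoa6-sufficient libraries, and from 3.46% to 4.57% to 15.7% to 24.5% in knockout libraries. Cebpb held the rest, 74.3% to 82.8% of the trio in stimulated Ncoa6-KO against 63.2% to 66.0% in stimulated Ncoa6-sufficient BMDMs.

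**Figure D2:**
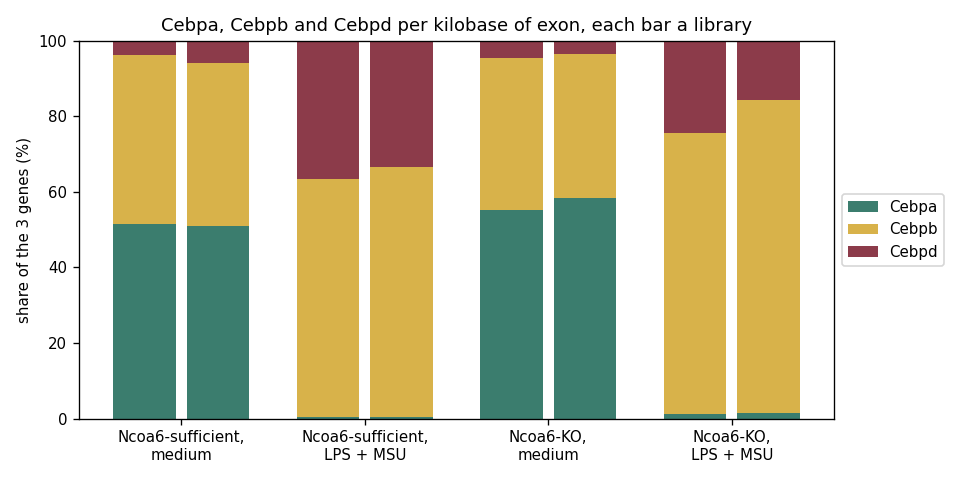
Stacked bars give the share, in percent, of Cebpa, Cebpb and Cebpd in their summed normalized counts per kilobase of exon, 1 bar for each of the 8 libraries. Cebpa takes over 50% of each unstimulated bar and at most 1.48% of each stimulated bar, and the Cebpd segment is shorter in the stimulated Ncoa6-KO bars than in the stimulated Ncoa6-sufficient bars.

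Maf responded in Ncoa6-sufficient BMDMs, with 8022 and 7385 normalized counts against 16528 and 13257 after stimulation. In Ncoa6-KO BMDMs the values were 7564 and 6915 against 8066 and 6581, and the stimulated and unstimulated libraries overlapped. The change was 0.95 ± 0.14 in Ncoa6-sufficient BMDMs (log2 ± SE, edgeR adjusted p = 0.000109) and 0.02 ± 0.14 in Ncoa6-KO BMDMs (adjusted p = 0.928). With library totals as the scale these values were 0.28 (adjusted p = 0.062) and -0.62 (adjusted p = 0.000849), which, relative to the all-gene medians on that scale, are 1.06 above and 0.09 above.

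Klf6 was the most abundant Krüppel-like factor of the 3, at 86.0% to 88.5% of their summed level per kilobase with medium alone and 95.0% to 96.9% with LPS + MSU. It was at 6289 and 6498 normalized counts against 39925 and 35558 in Ncoa6-sufficient BMDMs and at 6502 and 5845 against 31718 and 31315 in Ncoa6-KO BMDMs. Klf6 rose by 2.56 ± 0.12 and 2.35 ± 0.12 (edgeR adjusted p = 1.18e-08 and 2.06e-08). Klf4 was at 152 and 200 against 378 and 489 normalized counts in Ncoa6-sufficient and at 176 and 205 against 529 and 592 in Ncoa6-KO BMDMs. It rose by 1.31 ± 0.17 and 1.56 ± 0.17 (edgeR adjusted p = 5.74e-05 and 1.30e-05). These 2 factors thus moved the same way in both genotypes, with no overlap between stimulated and unstimulated libraries.

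Klf2 stood near 300 normalized counts in most groups, with 273 and 324 against 301 and 277 in Ncoa6-sufficient BMDMs and 248 and 208 against 298 and 340 in Ncoa6-KO BMDMs. The libraries overlapped in the former and not in the latter. The log2 fold change was -0.05 ± 0.15 (edgeR adjusted p = 0.806) and 0.48 ± 0.15 (adjusted p = 0.017). The knockout call was lost without the replicate 2 library of stimulated Ncoa6-KO (0.38, adjusted p = 0.112) or of unstimulated Ncoa6-KO BMDMs (0.36, adjusted p = 0.0967). With library totals Klf2 was at -0.72 (adjusted p = 0.00114) in Ncoa6-sufficient and at -0.15 (adjusted p = 0.389) in Ncoa6-KO BMDMs, which is 0.06 and 0.55 above the all-gene medians on that scale.

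Mef2c was at 1771 and 1707 normalized counts before and at 666 and 672 after stimulation in Ncoa6-sufficient BMDMs, and at 1724 and 1923 against 720 and 707 in Ncoa6-KO BMDMs. It fell by 1.38 ± 0.09 and 1.35 ± 0.09 on the log2 scale (edgeR adjusted p = 2.27e-07 and 2.68e-07). The stimulated libraries of both genotypes lay within a range of 666 to 720.

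**Figure D3:**
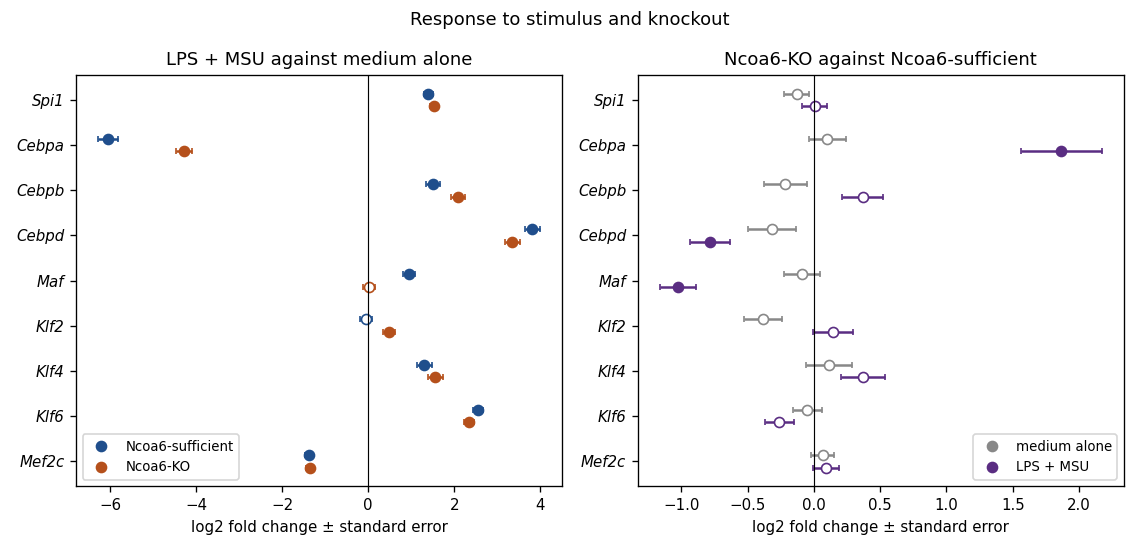
Log2 fold changes of the 9 factors with bars of 1 standard error (n = 2 libraries per group), LPS + MSU against medium alone in each genotype on the left and Ncoa6-KO against Ncoa6-sufficient in each culture condition on the right, on axes of different range. Filled points passed an adjusted p of 0.05: on the left all but Maf in Ncoa6-KO and Klf2 in Ncoa6-sufficient BMDMs, on the right Cebpa, Cebpd and Maf with LPS + MSU.

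The effect of the knockout was examined within each culture condition. With medium alone, 0 of the 9 factors were called by edgeR or by DESeq2, where edgeR called 1.88% of all genes tested, 0.573% higher and 1.3% lower. One factor, Klf2, had an unadjusted p under 0.05, at 273 and 324 normalized counts in Ncoa6-sufficient and 248 and 208 in Ncoa6-KO libraries (-0.38 ± 0.14, edgeR adjusted p = 0.26). The log2 fold changes of the others lay between -0.31 (Cebpd) and 0.12 (Klf4), with standard errors of 0.09 to 0.18. The genotypes did not overlap for Klf2, Spi1 and Cebpb, each lower in the knockout, 3 of 9 where 43.1% of all genes tested did not overlap. The median of the 9 was -0.09, against -0.03 over all genes.

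With LPS + MSU, 3 of the 9 factors were called, where 3.59% of all genes tested were called, 1.96% higher and 1.63% lower. Cebpa was higher and Cebpd and Maf were lower in Ncoa6-KO BMDMs. The genotypes did not overlap for 7 of the 9, against 47.4% of all genes, and 6 of the 9 had an unadjusted p under 0.05, against 17.4%.

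Maf, at 16528 and 13257 normalized counts in Ncoa6-sufficient and 8066 and 6581 in Ncoa6-KO BMDMs, was lower in the knockout by 1.02 ± 0.14 on the log2 scale, a 2.03-fold difference (edgeR adjusted p = 0.00472). Its call was lost without the replicate 2 library of stimulated Ncoa6-KO BMDMs, at -0.89 (adjusted p = 0.0692). Cebpa, at 16.6 and 28.9 against 64.0 and 104 normalized counts, was 3.64-fold higher in the knockout (1.86 ± 0.31, edgeR adjusted p = 0.0107). Both levels were far under those with medium alone. The call of Cebpa was lost in a fit of the 4 stimulated libraries alone (1.87, adjusted p = 0.0866), without replicate 1 of stimulated Ncoa6-sufficient BMDMs (1.51, adjusted p = 0.122) and without replicate 2 of stimulated Ncoa6-KO BMDMs (1.48, adjusted p = 0.107). Cebpd, at 3103 and 2647 against 1787 and 1559 normalized counts, was lower by 0.78 ± 0.15, a 1.72-fold difference (edgeR adjusted p = 0.0205). Its call was lost without replicate 1 of stimulated Ncoa6-sufficient (-0.67, adjusted p = 0.173) and without replicate 1 (-0.90, adjusted p = 0.0502) or replicate 2 (-0.69, adjusted p = 0.191) of stimulated Ncoa6-KO BMDMs. Leaving out replicate 2 of the stimulated knockout left 0 of the 9 factors called, and leaving out replicate 1 of the stimulated Ncoa6-sufficient group left 1, Maf.

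The other 6 factors were not called with LPS + MSU in the main edgeR fit. Cebpb was at 2154 and 2092 against 2176 and 3306 normalized counts (0.37 ± 0.16, edgeR adjusted p = 0.252). It was called by edgeR without the filter on low counts (0.37, adjusted p = 0.0195). Over the fits without 1 library the Cebpb difference ranged from 0.03, without the higher knockout library, to 0.62. Klf4 was at 0.37 ± 0.17 (adjusted p = 0.279), Klf6 at -0.26 ± 0.11 (adjusted p = 0.249), Klf2 at 0.14 ± 0.15 (adjusted p = 0.688), Mef2c at 0.09 ± 0.10 (adjusted p = 0.683) and Spi1 at 0.01 ± 0.10 (adjusted p = 1.0). The smallest standard errors were those of Mef2c and Spi1.

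Whether the knockout effect differed between LPS + MSU and medium alone was tested as an interaction. edgeR called 0 of 17625 genes, and 5.93% had an unadjusted p under 0.05, 4 of the 9 factors among them. These were Cebpa (1.76 ± 0.34 on the log2 scale), Maf (-0.93 ± 0.19), Cebpb (0.58 ± 0.22) and Klf2 (0.53 ± 0.21), with edgeR adjusted p-values of 0.337, 0.337, 0.744 and 0.772. DESeq2 called 45 genes, 0.255% of those tested, and Cebpa (1.71, adjusted p = 0.00113) and Maf (-0.99, adjusted p = 0.000611) were 2 of them. Without the filter on low counts edgeR called both as well, and also Cebpb (adjusted p = 0.0309). The interaction call thus depended on the fit: 4 of the 8 alternatives that kept all libraries called Maf and Cebpa, with adjusted p from 3.08e-06 to 0.459 for Maf and from 2.12e-07 to 0.538 for Cebpa, and 0 of the 8 fits without 1 library called either, with adjusted p from 0.195 and 0.126 up to 0.9999.

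Relatives of the 9 factors in the same families were listed as well, 28 genes of which 23 passed the filter. The 5 left out were Nrl, Klf12, Klf14, Klf17 and Mef2b. LPS + MSU raised 6 and lowered 10 of the 23 in Ncoa6-sufficient and raised 6 and lowered 9 in Ncoa6-KO BMDMs, with medians of -0.57 and -0.52 on the log2 scale, against -0.12 and -0.07 over all genes. Genes with a group at 0 counts enter these medians through a prior count, and with such genes set to their bounds the medians were -0.20 and -0.06. With library totals 5 were higher in each genotype and 13 and 12 were lower.

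Among the Krüppel-like factors, Klf8 rose with Klf4 and Klf6, from 179 and 194 normalized counts to 1513 and 1395 in Ncoa6-sufficient BMDMs (2.96 ± 0.11, edgeR adjusted p = 2.73e-09), and by 3.08 ± 0.11 in Ncoa6-KO BMDMs. Klf10, a TGF-β-inducible factor, fell by 2.38 ± 0.12 and 1.99 ± 0.12, from 926 and 899 to 179 and 172 normalized counts in Ncoa6-sufficient BMDMs. Klf11 fell by 1.88 ± 0.23 and 1.97 ± 0.23. In the MAF family the small factor Maff rose by 2.27 ± 0.19 and 1.84 ± 0.18. In the MEF2 family Mef2d fell with Mef2c, by 2.44 ± 0.14 and 2.23 ± 0.13. Mef2a was at -0.19 ± 0.15 in Ncoa6-sufficient (edgeR adjusted p = 0.313) and fell by 0.70 ± 0.15 in Ncoa6-KO BMDMs (adjusted p = 0.00224).

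**Figure D4:**
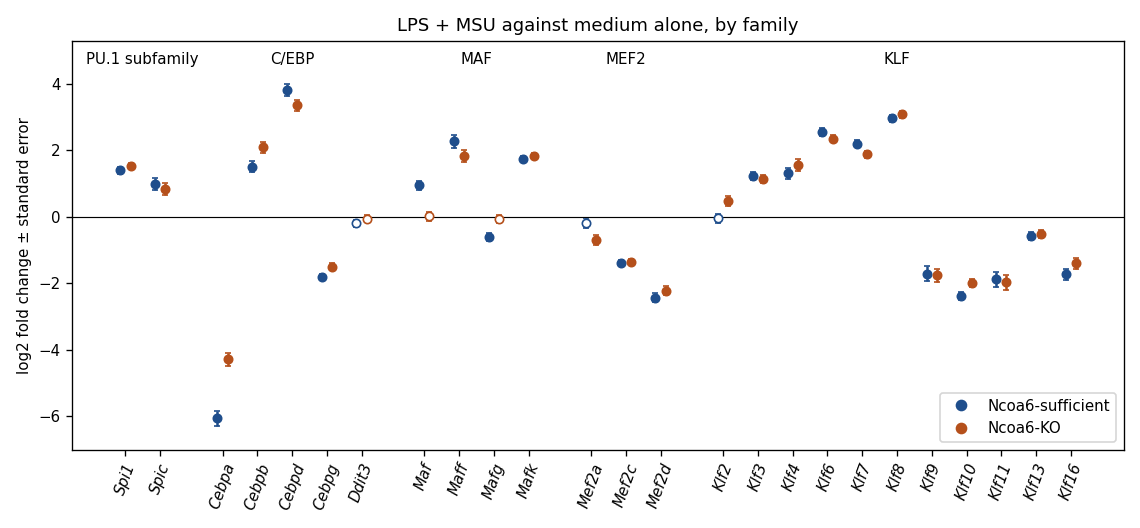
Log2 fold changes for LPS + MSU against medium alone with bars of 1 standard error (n = 2 libraries per group) for the 9 factors and 16 relatives whose mean reached 50 normalized counts, grouped by family, in Ncoa6-sufficient (blue) and Ncoa6-KO (orange) BMDMs. Each of the C/EBP, MAF and KLF families holds filled points, which passed an adjusted p of 0.05, above and below 0, and Cebpa is the lowest point, at -6.05 and -4.29.

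The knockout called 1 of the 23 relatives with medium alone and 2 with LPS + MSU. Klf9, a factor induced by glucocorticoids, was at 125 and 119 against 223 and 209 normalized counts with medium alone (0.82 ± 0.17, edgeR adjusted p = 0.0386) and at 0.77 ± 0.24 with LPS + MSU (adjusted p = 0.115). The former was at 0.84 and not called by DESeq2 (adjusted p = 0.0559). With LPS + MSU, Mafg, a small MAF protein that lacks an activation domain, was at 1685 and 1940 against 2369 and 3051 normalized counts, higher in the knockout (0.58 ± 0.12, edgeR adjusted p = 0.0316).

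Factors that work with the 9 were listed as 26 partners, cofactors and antagonists, all of which passed the filter. LPS + MSU raised 14 and lowered 8 in Ncoa6-sufficient BMDMs and raised 13 and lowered 8 in Ncoa6-KO BMDMs (medians 0.62 and 0.58), and with library totals 10 rose and 10 fell, and 9 rose and 9 fell. Ikaros (Ikzf1) rose by 3.22 ± 0.10 and 3.27 ± 0.10, and the ETS factor Ets2 rose by 2.90 ± 0.14 and 2.75 ± 0.14. Hdac5, a class IIa deacetylase that binds MEF2 proteins, fell by 3.15 ± 0.15 and 2.90 ± 0.15. The basic helix-loop-helix repressor Bhlhe40 fell by 2.82 ± 0.17 and 2.18 ± 0.15, and the ETS factor Fli1 was at -2.14 ± 0.10 and -2.40 ± 0.10, lower in both. Irf8, which binds DNA together with PU.1, was at 2835 and 2429 against 8885 and 5113 normalized counts in Ncoa6-sufficient BMDMs, where it rose by 1.41 ± 0.26 (edgeR adjusted p = 0.000732). In Ncoa6-KO BMDMs it was at 2645 and 2138 against 4181 and 2551, and the change was 0.49 ± 0.26 (adjusted p = 0.133).

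With medium alone the knockout called 0 of the 26 partners by edgeR and 0 by DESeq2. With LPS + MSU it called 5, 3 higher and 2 lower, and with the size factors of DESeq2 in edgeR 3 higher and 4 lower. Bhlhe41 (366 and 614 against 1081 and 1658 normalized counts) was higher by 1.48 ± 0.24, the related Bhlhe40 (74.8 and 85.4 against 149 and 209) by 1.15 ± 0.19, and Hdac4 (72.0 and 110 against 158 and 255), another MEF2-binding deacetylase, by 1.17 ± 0.26 (edgeR adjusted p = 0.0104, 0.0104 and 0.0337). All 3 had fallen under LPS + MSU in both genotypes. Trib1, a pseudokinase known for the degradation of C/EBPα protein, was at 883 and 715 against 437 and 479 normalized counts, lower by 0.80 ± 0.15 on the log2 scale (adjusted p = 0.0156). The repressor Bcl6, named after its values were seen, was lower by 0.50 ± 0.10 (adjusted p = 0.0228). Irf8 was at -1.06 ± 0.26 (adjusted p = 0.0528).

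Known target genes of the factors were followed in 4 lists. Of 19 PU.1 target genes, LPS + MSU raised 10 and lowered 2 in Ncoa6-sufficient BMDMs and raised 10 and lowered 1 in Ncoa6-KO BMDMs, with medians of 0.46 and 0.58. With library totals these counts were 6 and 8, and 7 and 9. The high-affinity IgG receptor Fcgr1 rose by 2.85 ± 0.32 and 3.52 ± 0.33, the LPS co-receptor Cd14 by 2.57 ± 0.16 and 3.30 ± 0.16, the NADPH oxidase subunit Cybb by 2.09 ± 0.17 and 2.35 ± 0.17 and the scavenger receptor Msr1 by 1.81 ± 0.15 and 1.68 ± 0.15. Csf1r, which encodes the M-CSF receptor, was lower in Ncoa6-sufficient (-0.36 ± 0.13, edgeR adjusted p = 0.0336) and at -0.27 ± 0.13 in Ncoa6-KO BMDMs (adjusted p = 0.0947). The call of Csf1r was lost by DESeq2 and with its size factors in edgeR (-0.25 in both), in a fit of the 4 Ncoa6-sufficient libraries alone (-0.32), without replicate 1 of stimulated (-0.21) or replicate 1 (-0.42) or 2 (-0.29) of unstimulated Ncoa6-sufficient BMDMs, and without replicate 1 or 2 of stimulated Ncoa6-KO BMDMs (-0.31 in both).

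While Spi1 itself was at -0.13 ± 0.10 with medium alone and 0.01 ± 0.10 with LPS + MSU in the knockout, 3 of its 19 listed targets, Lyz2 among them, were called lower in Ncoa6-KO BMDMs in each condition, where 1.3% and 1.63% of all genes tested were called lower, and 0 were called higher. With medium alone, Fcgr1 was at 4911 and 3033 against 1213 and 697 normalized counts (-2.05 ± 0.32, edgeR adjusted p = 0.0115), Lyz2 at 272098 and 209893 against 127555 and 111994 (-1.01 ± 0.17, adjusted p = 0.0172) and Cd14 at 8612 and 7115 against 5228 and 3937 (-0.78 ± 0.15, adjusted p = 0.0298). With LPS + MSU, Fcgr1 was lower by 1.38 ± 0.31, Lyz2 by 0.95 ± 0.17 and the integrin gene Itgam by 0.51 ± 0.12 (adjusted p = 0.0353, 0.0142 and 0.0412). Lyz2 is the locus that carries Cre in the knockout, so its level and the engineered allele cannot be told apart. Fcgr1, Lyz2 and Itgam are also among the 7 macrophage markers above, so their calls here are the same calls. The medians of the 19 were -0.14 and -0.08, against -0.03 and 0.00 over all genes.

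Of 12 C/EBP target genes, 8 rose with LPS + MSU and 0 fell in each genotype, with medians of 4.58 and 5.19. Il6, Nos2 and Il12b were at 0 to 7.51 normalized counts in the 4 libraries with medium alone and at 9301 to 66910 in the 4 with LPS + MSU. The cyclooxygenase gene Ptgs2 rose by 11.89 ± 0.27 and 11.30 ± 0.27. The knockout lowered the acute-phase gene Saa3 with medium alone, from 603 and 436 to 145 and 113 normalized counts (-2.00 ± 0.19, edgeR adjusted p = 0.00169). With LPS + MSU it lowered Saa3 by 0.76 ± 0.16 (22608 and 17506 against 12279 and 11471, adjusted p = 0.0334) and Csf3, the gene of the granulocyte growth factor G-CSF, by 1.07 ± 0.23 (313 and 291 against 120 and 168, adjusted p = 0.0304). The medians of the 12 under the knockout were -0.14 and -0.27.

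Of 9 MAF target genes, LPS + MSU raised 3 and lowered 1 in Ncoa6-sufficient BMDMs and raised 5 and lowered 1 in Ncoa6-KO BMDMs. With library totals the counts were 2 and 2, and 1 and 3. Il10 rose by 5.78 ± 0.35 and 4.88 ± 0.39, and the apoptotic cell receptor Mertk by 1.54 ± 0.24 and 1.09 ± 0.23. The haptoglobin-hemoglobin receptor Cd163 fell by 1.96 ± 0.27 and 2.60 ± 0.27. The complement gene C1qb was at 0.73 ± 0.28 and 0.82 ± 0.28 (edgeR adjusted p = 0.0427 and 0.0276). Its calls were lost by DESeq2 (adjusted p = 0.0826 and 0.0721), with library totals (0.06 and 0.18) and without 1 library, replicate 1 of stimulated (0.50) or replicate 2 of unstimulated Ncoa6-sufficient BMDMs (0.48), and replicate 1 of stimulated (0.43) or replicate 2 of unstimulated Ncoa6-KO BMDMs (0.54). The Mertk value in Ncoa6-KO BMDMs was 0.46 and not called with library totals. The knockout called 0 of the 9 with medium alone, by edgeR, and the median was -0.55 against -0.03 over all genes. With LPS + MSU, where Maf was lower, 1 of the 9 was called and the median was -0.50 against 0.00. This was Il10, at 2634 and 1306 normalized counts in Ncoa6-sufficient and 589 and 439 in Ncoa6-KO BMDMs (-1.94 ± 0.27, edgeR adjusted p = 0.00518).

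Of 9 target genes of KLF and MEF2 factors, LPS + MSU raised 3 and lowered 3 in each genotype, and with library totals it raised 2 and lowered 5, and raised 1 and lowered 3. The cell cycle inhibitor Cdkn1a rose by 2.75 ± 0.16 and 2.99 ± 0.16. The sphingosine receptor S1pr1 fell by 3.72 ± 0.15 and 4.17 ± 0.16 and thrombomodulin (Thbd) by 2.61 ± 0.21 and 3.98 ± 0.24. The knockout called 0 of the 9 with medium alone by edgeR. With LPS + MSU, Cdkn1a was higher (28692 and 30072 against 43963 and 55140 normalized counts, 0.75 ± 0.15, edgeR adjusted p = 0.0226) and Thbd lower (114 and 67.5 against 44.4 and 30.8, -1.26 ± 0.29, adjusted p = 0.0397).

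The knockout calls in these lists rested on 2 libraries a group. Of the 5 with medium alone, 1, Saa3, stayed in all 8 fits without 1 library, and 1 of the 5 was left without replicate 1 of unstimulated Ncoa6-sufficient and 1 without replicate 2 of unstimulated Ncoa6-KO BMDMs. Of the 15 with LPS + MSU, 0 were left without replicate 2 of stimulated Ncoa6-KO, 1, Il10, without replicate 1 of stimulated Ncoa6-sufficient, 6 without replicate 1 of stimulated Ncoa6-KO and 10 without replicate 2 of stimulated Ncoa6-sufficient BMDMs. In a fit of the 4 stimulated libraries alone, 1 of the 15 stayed called, Lyz2, the locus that carries Cre. Il10 was then at -1.93 and not called (edgeR adjusted p = 0.0578). In a fit of the 4 unstimulated libraries alone, all 5 stayed called.

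**Figure D5:**
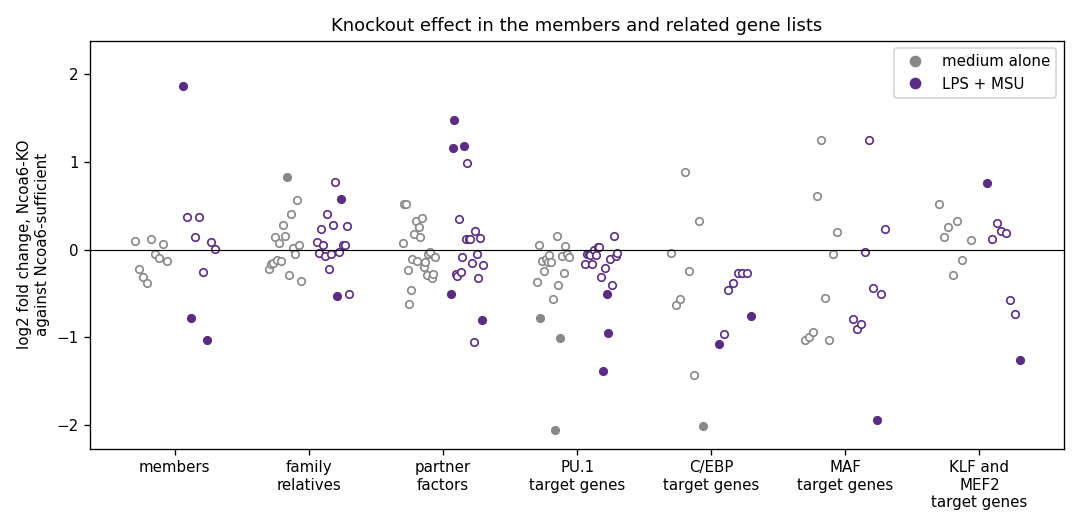
Log2 fold changes of single genes, Ncoa6-KO against Ncoa6-sufficient, with medium alone (gray) and with LPS + MSU (purple), for the 9 factors (members) and the 6 related lists, with genes of at least 50 normalized counts on average and called genes filled (n = 2 libraries per group). In the lists of PU.1, C/EBP and MAF target genes the filled points lie below 0, with Fcgr1 at -2.05 and Saa3 at -2.00 with medium alone and Il10 at -1.94 with LPS + MSU.

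The genes whose levels followed each factor most closely over the 8 libraries were looked up among the 11219 genes whose mean reached 50 normalized counts, by Pearson's r of log2 values. These r values are descriptions, since the libraries fall into stimulated and unstimulated ones and most genes moved with that division. The highest r was 0.98 for Maf (Pkp4) and 0.906 for Klf2 (Fam192a), while for each of the other 7 factors it lay above 0.997. Examples are Spi1 with Mapkapk2 (0.9997) and Nfkb2 (0.9992), Klf6 with the glucocorticoid receptor gene Nr3c1 (0.9999) and Cebpa with Kcnk13 (0.9988).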

How the data were processed

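Mouse RNA-seq data from 8 libraries were analyzed. The authors sequenced stranded poly(A) libraries in pairs of reads, aligned them with STAR 2.7.3a to GRCm38 and obtained expected counts per gene with RSEM 1.3.3 (annotation release 101), and these expected counts were deposited without normalization. Depth was 25281955 to 33673552 counts per library. All 9 factors were matched by symbol. Gene positions and exon lengths came from a GENCODE annotation of GRCm38, and promoter windows from RefSeq (GRCm38.p6). Here counts were rounded, genes whose counts summed to less than 10 were removed, as the study did, which left 17625, and edgeR 4.0.16 (R 4.3.3) was run with TMM scaling and its quasi-likelihood test, all 4 groups in 1 fit. Genes were called at a Benjamini-Hochberg adjusted p under 0.05 over all genes. With 2 libraries per group an exact permutation test cannot give a p below 0.333, so p-values come from these models and measure the spread between 2 mice a group. All 9 factors and the 3 genes most correlated with each were looked at, and Ncoa6 as a check of the labels. Of each other list, the 4 called genes of largest change were named in each comparison where their mean reached 50 normalized counts, as were Mef2a, Mef2d, Irf8 and Csf1r. The values of some genes that this rule names are not reported here. The factors, lists, rule and tests were chosen with earlier results of these data known. Alternatives were DESeq2 1.42.0, its size factors in edgeR, filterByExpr, no filter, limma-voom (limma 3.58.1), the replicate number as a block, a fit of only the 4 libraries compared, a log2 fold change limit of 1 and leaving out each library; library totals were added after the data were seen. The code was tested on simulated data. Figures were drawn with matplotlib 3.10.9.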

Additional observations from a re-analysis of the deposited data

Results flagged for a closer look

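The knockout difference of Cebpb pointed in opposite directions in the 2 culture conditions. With medium alone both Ncoa6-KO libraries lay under both Ncoa6-sufficient libraries (-0.22 on the log2 scale), and with LPS + MSU both lay above (0.37). The test of the difference itself was at 0.58 ± 0.22 on the log2 scale, with an adjusted p of 0.744 in edgeR. Of its 8 alternatives that kept all libraries, 2 called it: edgeR without the filter on low counts (adjusted p = 0.0309) and edgeR with the replicate number as a block within genotype (adjusted p = 0.0274). Without the higher stimulated Ncoa6-KO library, the replicate 2 library, the value with LPS + MSU was 0.03. This was the lowest value over the fits without 1 library, and the highest was 0.62.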

How the results depend on the processing

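With 2 libraries per group and 4 residual degrees of freedom, differences of the size of the standard errors given above were not detectable. Of the calls among the 9 factors, those of Spi1, Cebpa, Cebpb, Cebpd, Klf4, Klf6 and Mef2c under LPS + MSU held in both genotypes under each alternative and without any 1 library. The call of Maf in Ncoa6-sufficient BMDMs was lost with library totals (0.277), and that of Klf2 in Ncoa6-KO BMDMs with library totals and without replicate 2 of the stimulated (0.384) or unstimulated (0.361) group. Both were also lost with the log2 fold change limit of 1, at 0.951 for Maf and 0.479 for Klf2. The number of factors called with the knockout under LPS + MSU ranged from 0 to 3 without 1 library, with 0 without replicate 2 of stimulated Ncoa6-KO and 1 without replicate 1 of stimulated Ncoa6-sufficient BMDMs. The lone library then left in a group is assumed to vary like the others.

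The libraries carry the numbers 1 and 2 in each group. The correlations of the deviations of same-numbered libraries were 0.0418 to 0.353, highest within each genotype (0.283 and 0.353). The labels do not say that a number marks a mouse, so the numbers were not taken to pair libraries. With the replicate block, 2 factors, Maf and Cebpa, were called in the interaction, where 0.488% of all genes were called, and with the block within genotype 3, Cebpb being the third (2.52%). With the block, or the block within genotype, the knockout calls in medium alone were 2 or 3 among family relatives, 2 or 4 among partner factors, 6 or 7 among PU.1 targets, 2 or 2 among C/EBP targets, 4 or 5 among MAF targets and 2 or 2 among KLF and MEF2 targets. With LPS + MSU they were 8 or 10 among partner factors, 5 or 5 among C/EBP targets and 6 or 5 among MAF targets, and the stimulus called 8 or 8 MAF targets in Ncoa6-sufficient BMDMs. The shares of all genes called by the block fits in these knockout and stimulus comparisons are not given here. These list counts therefore cannot be set against all genes. The block within genotype called 1 factor, Cebpb, for the knockout in medium alone (-0.42), and moved Cebpa there to -0.046 and Spi1 with LPS + MSU to -0.043. For the knockout with LPS + MSU it also called Klf4 (0.48, edgeR adjusted p = 0.0221), which the main fit did not. The knockout values of the block within genotype are genotype differences fitted at replicate 1, not averaged over both numbers. Differences between the numbers within a genotype are taken out of its spread. Its knockout calls, those in the lists included, therefore do not measure the spread between replicates. Neither fit moved another count of factors called by over 1.5 times.

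In the interaction, where edgeR called 0 factors, DESeq2 called Maf and Cebpa, 2 factors, and edgeR without the filter 3, Cebpb being the third (1.09% of all genes). DESeq2 and its size factors in edgeR each moved to the other side of 0 Klf2 under the stimulus in Ncoa6-sufficient BMDMs (0.064), Spi1 with the knockout under LPS + MSU (-0.032) and Mef2c in the interaction (-0.031). DESeq2 called 5 PU.1 targets and 2 KLF and MEF2 targets for the knockout in medium alone, and 5 C/EBP targets with LPS + MSU. Without the filter, the knockout in medium alone called 2 family relatives, 5 partner factors, 5 PU.1 targets, 2 C/EBP targets, 6 MAF targets and 2 KLF and MEF2 targets, the knockout with LPS + MSU 5 C/EBP and 7 MAF targets, and the stimulus in Ncoa6-sufficient BMDMs 7 MAF targets. Maf in stimulated Ncoa6-KO BMDMs was then at -0.008. limma-voom called 1 partner factor with medium alone and 1 KLF and MEF2 target with LPS + MSU. The shares of all genes called in these comparisons without the filter or by limma-voom are not given here. Their list counts therefore cannot be set against all genes. Library totals moved Maf and Klf2 under the stimulus in Ncoa6-KO BMDMs to -0.619 and -0.152. They called 1 MAF target for the knockout in medium alone, where 114 of all genes were called higher and 225 lower. Over all genes the knockout with LPS + MSU called 345 higher and 287 lower, and 480 and 218 with library totals. The stimulus called 4362 higher and 5375 lower in Ncoa6-sufficient and 4446 and 4913 in Ncoa6-KO BMDMs, and 2498 and 9653, and 2540 and 9313, with library totals. The cause was not tested.

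Some values near 0 changed sign without 1 library. Klf2 under the stimulus in Ncoa6-sufficient BMDMs ranged from -0.168 to 0.080 and Maf under the stimulus in Ncoa6-KO BMDMs from -0.148 to 0.158. For the knockout with medium alone, Klf4 ranged from -0.072 to 0.324, Klf6 from -0.129 to 0.024 and Mef2c from -0.012 to 0.145. Spi1 with LPS + MSU ranged from -0.048 to 0.041 and Mef2c in the interaction from -0.053 to 0.104. With a log2 fold change limit of 1 added, Maf and Cebpa were the factors called for the knockout with LPS + MSU.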
